A study of Mus musculus with 12 samples.

Results

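A set of 10 cytokine receptor genes were followed in RNA of splenic T cells from mice with and without miR-214, after 14 days of sham or angiotensin II (Ang II) infusion. The genes were *Il2rb*, *Il2rg*, *Il4ra*, *Il6ra*, *Il6st*, *Il21r*, *Il15ra*, *Il18r1*, *Il27ra* and *Il10ra*, chosen by name, and all 10 were found among the 49315 genes of the count table. Wild-type (WT) C57BL/6 mice and mice with a global deletion of miR-214 (miR-214-/-) were studied, all of them 12-week-old males. Each mouse carried an osmotic minipump that delivered either buffer (sham) or Ang II at a rate of 490 ng/kg a day, which gave 4 groups of 3 mice with 1 RNASeq library per mouse. T cells were enriched from spleen by magnetic depletion of other cells, so each library is a mixture of CD4+ cells, CD8+ cells and whatever else was not removed. Because miR-214 was absent from every cell of the knockout, a difference between genotypes is not limited to T cells. Libraries were made from polyadenylated RNA, so mature miR-214 was not measured and the genotype could not be checked from the counts.

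Lymphocytes stay alive, divide and take on functions in response to cytokines, which they sense through receptors built from shared chains. *Il2rg* encodes the common gamma chain, a subunit of the receptors for interleukin (IL)-2, IL-4, IL-7, IL-9, IL-15 and IL-21. It pairs with the beta chain *Il2rb* in the IL-2 and IL-15 receptors, with *Il4ra* in the IL-4 receptor and with *Il21r* in the IL-21 receptor, while *Il15ra* binds IL-15 and presents it to neighbouring cells. *Il6st* encodes gp130, the signalling chain used with *Il6ra* for IL-6 and with *Il27ra* for IL-27. *Il10ra* is the ligand-binding chain for IL-10, which restrains immune responses, and *Il18r1* is that for IL-18, which enhances interferon-gamma production. All except *Il18r1* belong to the class I or class II cytokine receptors that signal through Janus kinases (JAKs) and STAT transcription factors, or to their associated chains. *Il18r1* signals through the adaptor Myd88. Several of these receptors, among them *Il4ra*, *Il6ra*, *Il10ra* and *Il2rg*, are also known from myeloid cells.

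The sequence deleted in the knockout is shown first, since it sets where miR-214 could pair with these messages. Mature mmu-miR-214-3p lies at chr1:162223438-162223459 on the plus strand (RefSeq, GRCm38.p6). Its seed, bases 2 to 8, is in capitals.
mmu-miR-214-3p: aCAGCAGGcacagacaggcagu
The matching site, CCTGCTG, was searched on the transcribed strand in the 3′ UTR of 1 principal protein-coding transcript per gene (GENCODE, GRCm38). It occurred in 5 of the 10 receptor genes, with 2 sites in *Il4ra* and 1 each in *Il6st*, *Il18r1*, *Il27ra* and *Il10ra*. Over 13105 tested genes with an annotated 3′ UTR, 21.5% held the site, and the receptors' median 3′ UTR of 1765 bases was longer than the 990 bases of those genes. The sites, in capitals within the bases around them, were as follows.
Il4ra, site at chr7:125577571-125577577, plus strand, 3′ UTR: tagaggcagagCCTGCTGtcctccgctca
Il4ra, site at chr7:125579318-125579324, plus strand, 3′ UTR: ggattccctgcCCTGCTGttaccttgcct
Il6st, site at chr13:112507314-112507320, plus strand, 3′ UTR: ggatccgcctgCCTGCTGtgccaccactg
Il18r1, site at chr1:40500223-40500229, plus strand, 3′ UTR: acacaacacctCCTGCTGaaatatgcatc
Il27ra, site at chr8:84030677-84030683, minus strand, 3′ UTR: ttgtgatcctcCCTGCTGcagcatcccca
Il10ra, site at chr9:45254842-45254848, minus strand, 3′ UTR: agccattactcCCTGCTGctcactgttgt
A match of these letters is a description of the sequence and not a measured site of binding.

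Promoters were read from RefSeq (GRCm38.p6) as the 250 bases before to 50 bases after each annotated start, on the strand of the gene. Windows were matched for 7 of the 10 genes and numbered 10, since *Il18r1* had 3 and *Il15ra* had 2. STAT sites, written TTCNNNGAA, were found in 1 of these windows, which held 2 of them, and in 8.3% of 32841 promoters of the same length. The ETS core CCGGAAG was found in 2 windows (*Il2rg* and *Il15ra*), against 8.86% of all promoters. A GATA site, AGATAA, stood in the *Il6ra* window against 11.2% of all, and a Runx site, TGTGGTT, in 1 *Il18r1* window against 5.27% of all. Both strands were searched, and none of the 10 windows held an interferon response pair or a consensus NF-kB site, which 3.44% and 0.155% of all promoters held. The matched letters do not overlap one another. Printed here are the promoters of *Il2rg*, the common gamma chain, and of *Il18r1* and *Il21r*, which had the highest values of the set in the interaction of Ang II and genotype, with motif matches in capitals. Of the 3 *Il18r1* windows only the one with the STAT sites is printed, and its start lies inside the gene. The window at the first base of the gene, chr1:40465302-40465601, held no motif. The Runx site was in the remaining window, chr1:40465371-40465670.
Il2rg, chrX:101268206-101268505, minus strand, ETS core: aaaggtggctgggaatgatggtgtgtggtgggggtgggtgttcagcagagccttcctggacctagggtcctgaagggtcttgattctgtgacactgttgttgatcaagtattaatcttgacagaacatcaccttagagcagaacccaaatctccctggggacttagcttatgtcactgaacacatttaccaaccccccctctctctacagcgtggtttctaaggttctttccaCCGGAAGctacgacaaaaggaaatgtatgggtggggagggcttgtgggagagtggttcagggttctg
Il18r1, chr1:40465756-40466055, plus strand, STAT sites: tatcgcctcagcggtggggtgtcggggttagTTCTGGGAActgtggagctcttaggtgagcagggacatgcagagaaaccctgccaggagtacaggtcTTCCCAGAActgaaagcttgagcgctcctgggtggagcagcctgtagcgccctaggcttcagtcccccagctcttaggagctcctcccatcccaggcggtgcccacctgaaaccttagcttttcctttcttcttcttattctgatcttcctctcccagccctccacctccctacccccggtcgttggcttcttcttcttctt
Il21r, chr7:125603179-125603478, plus strand, no motif matched: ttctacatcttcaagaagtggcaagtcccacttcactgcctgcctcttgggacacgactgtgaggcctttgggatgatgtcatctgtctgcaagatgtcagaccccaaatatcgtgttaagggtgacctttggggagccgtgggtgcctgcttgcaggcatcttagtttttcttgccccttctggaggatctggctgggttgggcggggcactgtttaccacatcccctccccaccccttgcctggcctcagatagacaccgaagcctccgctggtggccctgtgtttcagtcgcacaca

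Totals of between 21126874 and 29605988 counts per library were deposited, and each receptor gene had between 313 counts (*Il15ra*) and 11585 counts (*Il6st*) in every library. The summed level of 12 T cell marker genes was 5076 to 6033 CPM (counts scaled to library size and, by TMM, to library composition) in WT sham, 3391 to 4196 in WT Ang II, 4582 to 5396 in miR-214-/- sham and 3899 to 5356 in miR-214-/- Ang II. All 12 of these markers were detected in every library, and 9 of them were called lower in WT Ang II than in WT sham. Other cells were present too. The summed level of 10 neutrophil genes was 198 to 253 CPM in WT sham, 1119 to 3346 in WT Ang II, 239 to 958 in miR-214-/- sham and 608 to 3041 in miR-214-/- Ang II. The summed level of 11 genes of red-cell precursors was 379 to 583, 1236 to 5790, 349 to 620 and 655 to 4727 CPM in the same order of groups. Called higher in WT Ang II were 10 of 10 neutrophil genes, 7 of 7 basophil and mast cell genes, 6 of 11 red-cell genes, 3 of 7 megakaryocyte genes, 2 of 10 macrophage and monocyte genes, 2 of 7 dendritic cell genes and 1 of 6 plasma cell genes. None of 10 B cell genes and 4 tested NK cell genes was called in either direction there. Over all 16012 genes tested in WT, 1131 were called lower and 1878 higher. With libraries scaled to the 12 T cell genes, the lists called higher had 10, 7, 11, 6, 5, 5 and 6 such genes in the same order. Under that scaling 7682 of all genes were called higher. No marker of any list was at 0 in all libraries. In bulk RNA such as this, fewer T cells and less receptor RNA per T cell cannot be told apart.

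Compared per kilobase of exon, the receptor genes spanned a wide range of levels in WT sham mice. *Il2rg* was the highest at 150 ± 12.9 CPM per kb (mean ± SD, n = 3), followed by *Il27ra* at 107 ± 7.27 CPM per kb. *Il2rb* at 80.4 ± 12.6 and *Il21r* at 64.2 ± 7.59 CPM per kb came next, and their ranges overlapped. A middle group of *Il6ra* (43.7 ± 3.31), *Il6st* (39.8 ± 1.49), *Il18r1* (38.9 ± 3.15), *Il4ra* (36.8 ± 3.24) and *Il10ra* (29.97 ± 5.35 CPM per kb) came next, in which neighbours overlapped. Within that group *Il6ra* lay wholly above *Il4ra* and *Il10ra*, and *Il6st* wholly above *Il10ra*. *Il15ra* was the lowest member, at 3.47 ± 0.119 CPM per kb. Steps at which neighbours in this order did not overlap were those from *Il2rg* to *Il27ra*, from *Il27ra* to *Il2rb*, from *Il21r* to *Il6ra* and from *Il10ra* to *Il15ra*. The plot of levels by library shows all 10 genes in the 4 groups.

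**Figure D1:**
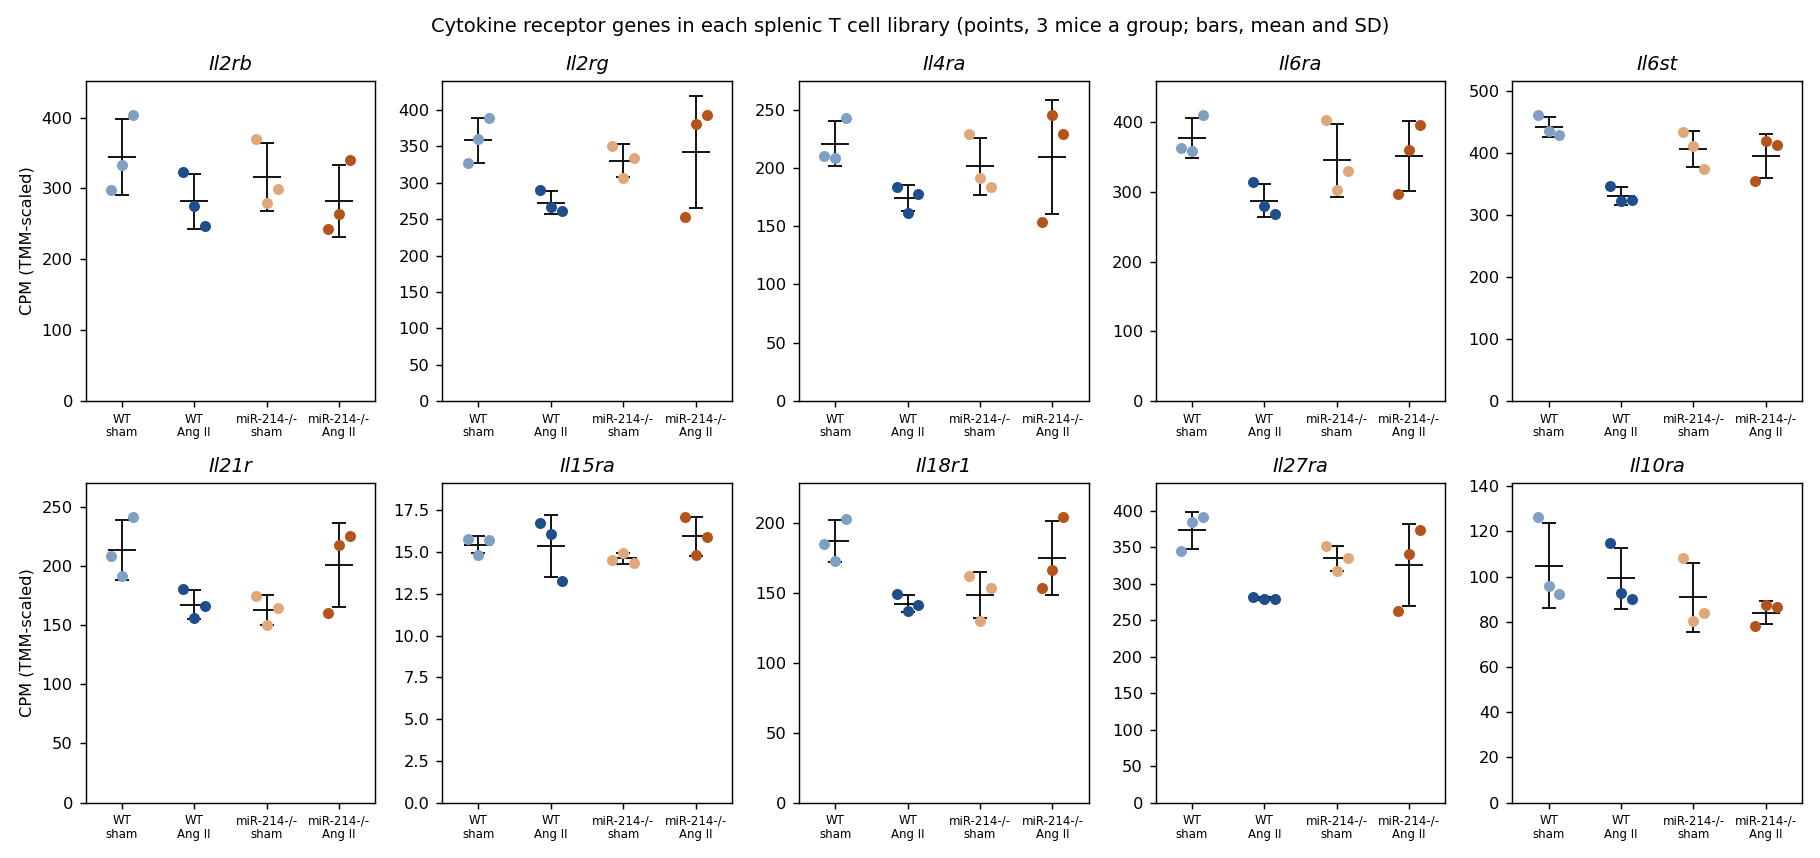
Level of each cytokine receptor gene (vertical axis, TMM-scaled CPM, from 0) in the 4 groups of mice; points are the 3 libraries of a group in replicate order from left to right, and black bars are the mean and SD. Under this scaling *Il6st* sat between 429.9 and 461 CPM in WT sham and between 322 and 347 in WT Ang II, whereas *Il15ra* and *Il10ra* overlapped between those groups; scaled to T cell genes, all 10 WT log2 fold changes were above 0.

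The first comparison asked how Ang II infusion changed these receptors in WT mice. Under TMM scaling 6 of the 10 genes, *Il2rg*, *Il4ra*, *Il6ra*, *Il6st*, *Il18r1* and *Il27ra*, were lower after Ang II at an adjusted p under 0.05 and 0 were higher, whereas with libraries scaled to the 12 T cell genes 0 were lower and 1, *Il15ra*, was higher. As percent changes under TMM scaling these ran from -24.01% (*Il6st*) to -19.7% (*Il4ra*). Of all 16012 genes tested 18.8% were called, 7.06% in the lower direction. The median log2 fold change was -0.35 over the receptor genes and -0.02 over all genes. Between the groups, 7 receptor genes did not overlap and were lower, the 6 called ones and *Il21r*, and 22% of all genes tested did so in that direction. No receptor gene passed a log2 fold change of 1 as well, which 7.3% of all genes did.

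Among the chains of the gamma chain family, *Il2rg* was at 327, 360.4 and 389 CPM in WT sham and at 291, 266 and 262 CPM in WT Ang II. Every Ang II library was below every sham library, with a log2 fold change of -0.37 (SE 0.08, adjusted p = 0.0266, edgeR quasi-likelihood test). *Il4ra*, the alpha chain for IL-4, was at 210.2, 209 and 243 CPM in sham and at 184, 161.5 and 178 CPM after Ang II. These groups did not overlap either, and the log2 fold change was -0.32 (SE 0.09, adjusted p = 0.0482). *Il21r*, which lies 23954 bases from *Il4ra* on chromosome 7, was at 208, 192 and 241 CPM in sham and at 180.5, 155.5 and 166 CPM after Ang II. Its libraries separated in the same direction. Its log2 fold change of -0.33 (SE 0.10) did not pass the test in edgeR (adjusted p = 0.065) but did in DESeq2 (adjusted p = 0.0451). DESeq2 called 7 receptor genes and 3740 of 28524 genes with any count (13.1%). That base is wider than the 16012 filtered genes of edgeR, of which 3009 were called. *Il2rb*, the chain that receives IL-2 and IL-15 signals, was at 298, 333 and 403 CPM in sham and at 324, 275 and 247 CPM after Ang II. Replicate 1 of the Ang II group was above replicate 1 of the sham group, and the log2 fold change of -0.27 (SE 0.14) was not called (adjusted p = 0.208). *Il15ra* was at 15.8, 14.8 and 15.7 CPM in sham and at 16.7, 16.1 and 13.3 CPM after Ang II. Its groups overlapped, with a log2 fold change of 0.01 (95% confidence interval -0.29 to 0.31).

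The gp130 family held the genes with the smallest adjusted p of the set. *Il6st* was at 461, 436 and 429.9 CPM in WT sham and at 347, 322 and 323.5 CPM in WT Ang II. The groups were far apart relative to their spread, with means of 442 ± 16.5 and 331 ± 14.3 CPM and a log2 fold change of -0.40 (SE 0.07, adjusted p = 0.0131). *Il27ra*, the partner of gp130 for IL-27, was at 344, 384 and 391 CPM in sham and at 282, 279 and 278.5 CPM after Ang II. The 3 Ang II libraries were nearly equal (SD 1.91 CPM) and all below sham, with a log2 fold change of -0.39 (SE 0.07, adjusted p = 0.0131). *Il6ra*, the IL-6-binding chain, was at 364, 358 and 410.3 CPM in sham and at 314, 279 and 269 CPM after Ang II. It too was lower in each Ang II library, with a log2 fold change of -0.37 (SE 0.09, adjusted p = 0.0305).

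Of the remaining receptors, *Il18r1* was at 186, 173 and 203 CPM in WT sham and at 149, 137 and 141 CPM in WT Ang II. All Ang II libraries were below all sham libraries, with a log2 fold change of -0.37 (SE 0.08, adjusted p = 0.0208). *Il10ra* was at 126, 95.8 and 92.4 CPM in sham and at 115, 92.6 and 90.3 CPM after Ang II. Within each group 1 library was above the other 2, the groups overlapped, and the log2 fold change was -0.06 (95% confidence interval -0.41 to 0.30, adjusted p = 0.813).

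**Figure D2:**
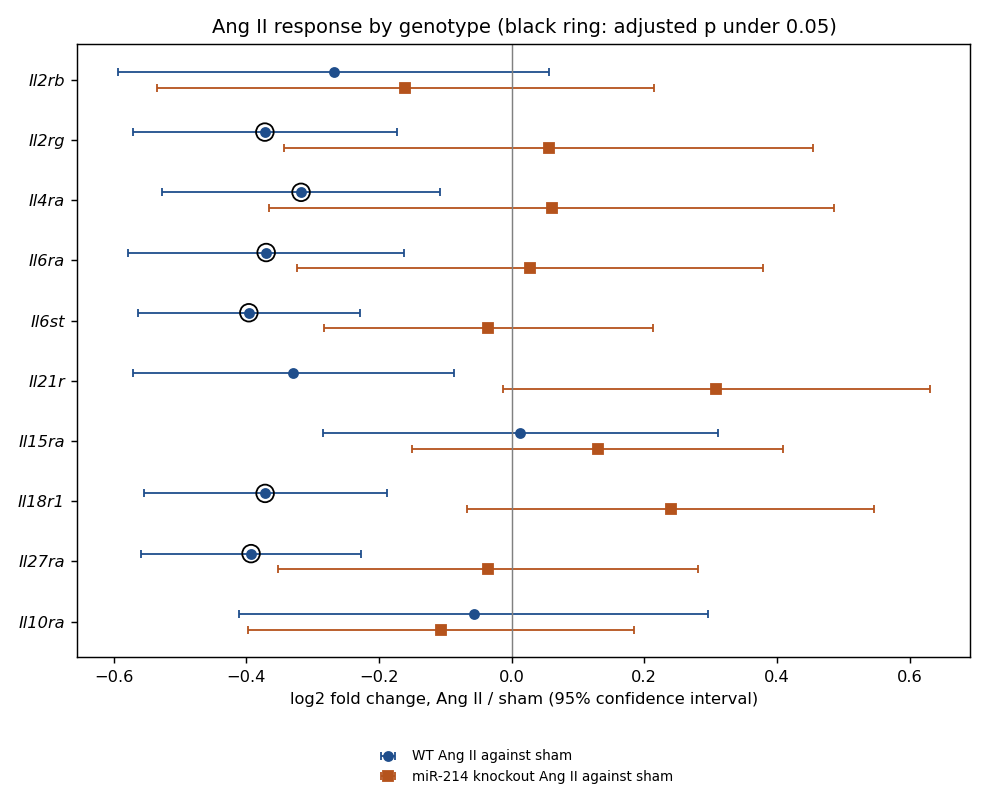
Log2 fold change of Ang II over sham (horizontal axis, TMM scaling, bars are 95% confidence intervals) for the 10 receptor genes in WT (circles) and miR-214-/- mice (squares); black rings mark an adjusted p under 0.05. The 6 ringed values, all in WT and all below 0, lay between -0.40 and -0.32, and the miR-214-/- values lay between -0.16 and 0.31. With libraries scaled to T cell genes all 10 WT values were above 0.

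The number of calls, over the receptor genes and over all genes, changed when single libraries were left out. Leaving out 1 library at a time gave 2 calls without WT sham replicate 1, 3 without WT sham replicate 2, 2 without WT sham replicate 3, 7 without WT Ang II replicate 1, 2 without WT Ang II replicate 2 and 0 without WT Ang II replicate 3 (5.7% of all genes called), with 7 or 8 receptor genes at an unadjusted p under 0.05 each time. A single fit over all 12 libraries called 3, and 3359 of all 16770 genes tested. Over all genes 3009 were called with no library left out. In the same order of libraries left out, 1139, 1587, 1381, 3590, 1893 and 946 genes were called. The receptor median log2 fold change then lay between -0.40 and -0.28. How many of all genes had an unadjusted p under 0.05 in these fits was not counted. With no library left out, *Il21r* at an unadjusted p of 0.0146 in edgeR ranked 3598 of the 16012 genes tested. *Il2rb*, at an unadjusted p of 0.0923, ranked 7094. At least 3598 genes were thus under that threshold in the full fit, so the 7 or 8 receptor genes are not set apart by it.

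Summed T cell marker levels were 31.1% lower in WT Ang II than in WT sham on average, and the receptor genes were therefore also set against them. Per 1000 CPM of the 12 T cell genes, *Il2rb* was at 58.6, 61.0 and 66.9 in sham and at 77.1, 71.8 and 72.7 after Ang II. On this scale every Ang II library was above every sham library, whereas in CPM the groups overlapped and the mean was lower after Ang II. *Il2rg* was at 64.5, 66.0 and 64.4 in sham and at 69.3, 69.6 and 77.1 after Ang II, and *Il6st* at 90.8, 79.9 and 71.3 and at 82.8, 84.1 and 95.4. *Il2rg* was thus higher in each Ang II library, and *Il6st* overlapped. *Il4ra*, *Il6ra* and *Il15ra* also separated upward, whereas *Il21r*, *Il18r1*, *Il27ra* and *Il10ra* overlapped. In the edgeR fit scaled to T cell genes neither *Il2rb* (adjusted p = 0.0651) nor *Il2rg* (adjusted p = 0.225) was called. How many of all genes separated upward on this scale was not counted. Scaling by these genes moved the median log2 fold change of all genes from -0.02 to 0.50 and turned the split of all calls from 1131 lower and 1878 higher to 7 lower and 7682 higher. All 10 receptor values were then above 0, from 0.12 (*Il6st*) to 0.52 (*Il15ra*, adjusted p = 0.0319), and 48% of all genes were called. Relative to the median of all genes the receptor median was -0.33 under both scalings, and 9 of the 10 genes were below that median under each. A change of scaling moves all genes by nearly the same amount, so this likeness was largely fixed in advance and is no separate support. The neutrophil and basophil lists and 6 of 11 red-cell genes rose in the same libraries, and their part in the receptor values was not tested.

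**Figure D3:**
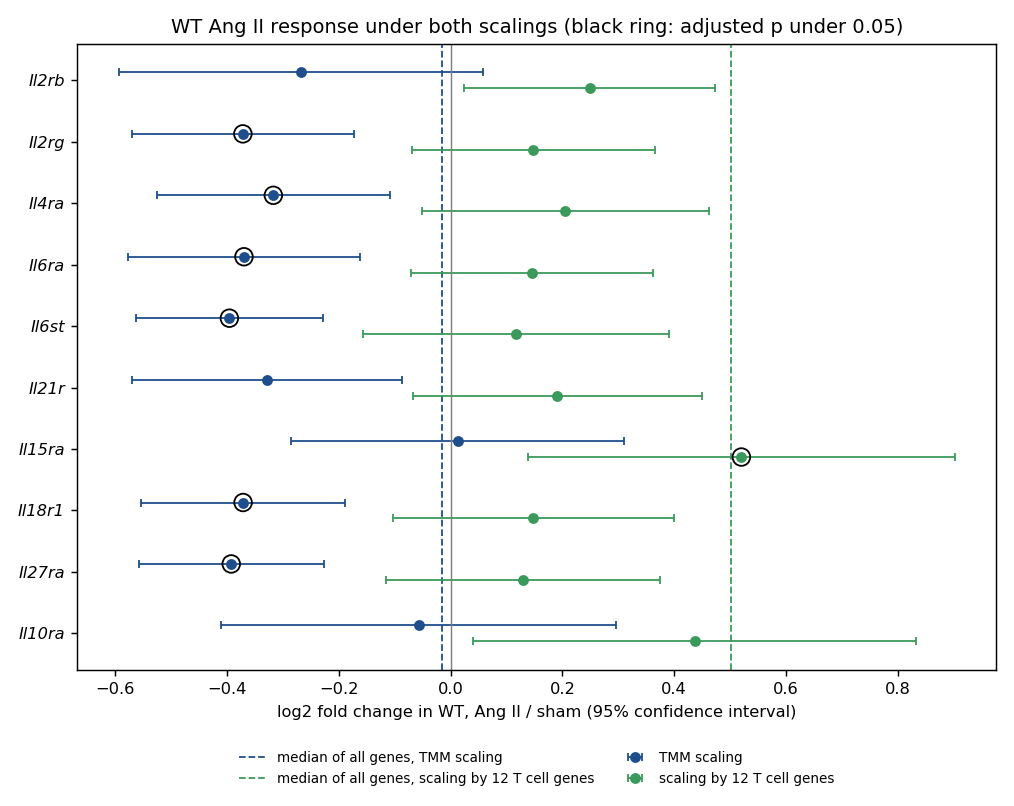
Log2 fold change of Ang II over sham in WT mice (horizontal axis, bars are 95% confidence intervals) for each receptor gene under TMM scaling (blue) and with libraries scaled to 12 T cell genes (green); dashed lines are the medians of all genes and black rings mark an adjusted p under 0.05. The receptor values shifted with the median of all genes, from 6 calls below 0 to 1 call above 0, and 9 of 10 stayed to the left of the dashed line of their own scaling. A change of scaling moves all genes by nearly the same amount, so that position was largely fixed in advance.

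In miR-214-/- mice no receptor gene was called after Ang II in edgeR, and 0 had an unadjusted p under 0.05. DESeq2 also called 0 receptor genes, and called 277 of the 28376 genes to which it gave a p-value. By edgeR 0% of the 15937 genes tested were called. Log2 fold changes ran from -0.16 (*Il2rb*) to 0.31 (*Il21r*) with a median of 0.04, against 0.03 over all genes, and the groups of all 10 genes overlapped. *Il2rg* was at 350.4, 306 and 335 CPM in miR-214-/- sham and at 253, 382 and 393 CPM in miR-214-/- Ang II. *Il6st* was at 433, 411 and 375 CPM and at 354, 419 and 412.5 CPM in the same groups. For both genes replicate 1 of the Ang II group was the lowest of the 6 libraries while the other 2 were among the higher ones. *Il21r* was at 174, 149.5 and 164 CPM in sham and at 160.1, 217.5 and 225 CPM after Ang II, with a log2 fold change of 0.31 (SE 0.14, adjusted p = 0.421). *Il18r1* was at 163, 130.2 and 153.5 CPM and at 154, 167 and 205 CPM, with a log2 fold change of 0.24 (SE 0.13, adjusted p = 0.489). In both of these genes 2 of the 3 Ang II libraries were above all sham libraries.

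The spread within the miR-214-/- Ang II group was larger than in the other groups for several genes, for example an SD of 77.6 CPM for *Il2rg* against 15.6 in WT Ang II. Replicate 1 was the lowest of this group for 9 of the 10 receptor genes, and *Il15ra* was the exception. It also had the lowest summed T cell marker level of its group, 3899 CPM against 5224 and 5356 CPM. On the scale per 1000 CPM of T cell genes, *Il21r* was at 32.3, 31.8 and 35.8 in miR-214-/- sham and at 41.1, 40.6 and 43.1 in miR-214-/- Ang II. On that scale the groups did not overlap, and the fit scaled to T cell genes gave a log2 fold change of 0.32 (SE 0.10, unadjusted p = 0.0155, adjusted p = 0.727). The share of all genes whose groups did not overlap on that scale was not counted. The 95% confidence interval under TMM scaling was -0.37 to 0.49 for *Il4ra*, -0.34 to 0.45 for *Il2rg* and -0.28 to 0.21 for *Il6st*. The WT estimate lay inside the interval for *Il4ra* and outside it for *Il2rg* and *Il6st*, which is not a test of the difference between genotypes.

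Genotypes were compared next in sham mice. All 10 receptor genes were on the lower side in miR-214-/- under TMM scaling, with a median log2 fold change of -0.13 against -0.01 over all genes, but 0 were called by edgeR or DESeq2, and 7 of the 10 were above 0 with libraries scaled to T cell genes. Over all genes edgeR called 0.0251% of 15913, and DESeq2 called 97 of the 28204 to which it gave a p-value. An unadjusted p under 0.05 in edgeR was reached by 2 receptor genes, *Il21r* and *Il18r1*, which ranked 73 and 204 of the 15913 genes by p. *Il27ra*, at an unadjusted p of 0.068 in edgeR, ranked 1387. *Il21r* was at 208, 192 and 241 CPM in WT sham and at 174, 149.5 and 164 CPM in miR-214-/- sham, with a log2 fold change of -0.40 (SE 0.10, unadjusted p = 0.00408, adjusted p = 0.701). *Il18r1* was at 186, 173 and 203 CPM and at 163, 130.2 and 153.5 CPM, with a log2 fold change of -0.34 (SE 0.10, unadjusted p = 0.00941, adjusted p = 0.701). These were the 2 receptor genes whose sham groups did not overlap, and 4.79% of all genes tested did so in that direction. In each, the miR-214-/- sham libraries covered levels close to those of WT Ang II, with means of 163 ± 12.3 and 167 ± 12.6 CPM for *Il21r* and 149 ± 16.7 and 143 ± 6.06 CPM for *Il18r1*. Both stayed below 0 with libraries scaled to T cell genes, at -0.22 for *Il21r* and -0.16 for *Il18r1*.

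Under Ang II, 9 of the 10 receptor genes were on the higher side in miR-214-/- against WT with a median log2 fold change of 0.26, whereas all 10 were below 0 with libraries scaled to T cell genes. No receptor gene was called by edgeR or DESeq2. Over all genes edgeR called 0% of 16215, and DESeq2 called 35 of the 28617 to which it gave a p-value. In edgeR 2 receptor genes had an unadjusted p under 0.05. By that p, *Il18r1* (0.037) ranked 1003 and *Il6ra* (0.0572) ranked 1600 of the 16215 genes. *Il6st* was at 347, 322 and 323.5 CPM in WT Ang II and at 354, 419 and 412.5 CPM in miR-214-/- Ang II, with a log2 fold change of 0.26 (SE 0.10, unadjusted p = 0.0358, adjusted p = 0.569). *Il18r1* had a log2 fold change of 0.30 (SE 0.12, unadjusted p = 0.037, adjusted p = 0.569). The libraries of these 2 genes did not overlap between genotypes, as did those of 8.01% of all genes in that direction. *Il10ra* was at 115, 92.6 and 90.3 CPM in WT Ang II and at 78.3, 87.5 and 86.4 CPM in miR-214-/- Ang II. Under TMM scaling it was the only receptor gene on the lower side, and its groups did not overlap (5.94% of all genes in that direction). Its log2 fold change was -0.24 (SE 0.11, adjusted p = 0.569), and -0.56 with libraries scaled to T cell genes (SE 0.14, adjusted p = 0.321). These comparisons share libraries with those between treatments, so their values are not independent of each other.

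The interaction asked whether the response to Ang II differed between genotypes. No receptor gene was called by edgeR, which called 0.00596% of 16770 genes, and 5 receptor genes had an unadjusted p under 0.05. By that p, *Il6ra* (0.0441) ranked 2269 and *Il2rg* (0.0515) ranked 2530 of those genes. The difference of log2 fold changes, miR-214-/- minus WT, was 0.66 for *Il21r* (SE 0.18, unadjusted p = 0.0044, adjusted p = 0.213) and 0.63 for *Il18r1* (SE 0.16, unadjusted p = 0.0024, adjusted p = 0.213). For *Il6st* it was 0.38 (SE 0.12, adjusted p = 0.237), for *Il27ra* 0.38 (SE 0.16, adjusted p = 0.313) and for *Il6ra* 0.42 (SE 0.18, adjusted p = 0.326). DESeq2 called 1 receptor gene, *Il18r1* (adjusted p = 0.0381), where it called 444 of 30192 genes with any count (1.47%). That base is wider than the 16770 filtered genes of edgeR. The median over the receptor genes was 0.39, against 0.01 over all genes. With libraries scaled to T cell genes it was -0.13, against -0.49 over all genes, and 8 of the 10 values were below 0, with *Il21r* at 0.13 and *Il18r1* at 0.12 the exceptions. Without replicate 1 of the miR-214-/- Ang II group edgeR called 6 receptor genes, each with a value above 0, together with 5.35% of all genes. The difference was then 0.80 for *Il21r* (adjusted p = 0.0186), 0.71 for *Il18r1* (adjusted p = 0.0314), 0.51 for *Il27ra* (adjusted p = 0.0295) and 0.45 for *Il6st* (adjusted p = 0.0412). Leaving out any other library called 0 receptor genes. The 2 genotypes' responses were therefore not shown to differ for any receptor gene at an adjusted p under 0.05 with all libraries in edgeR.

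**Figure D4:**
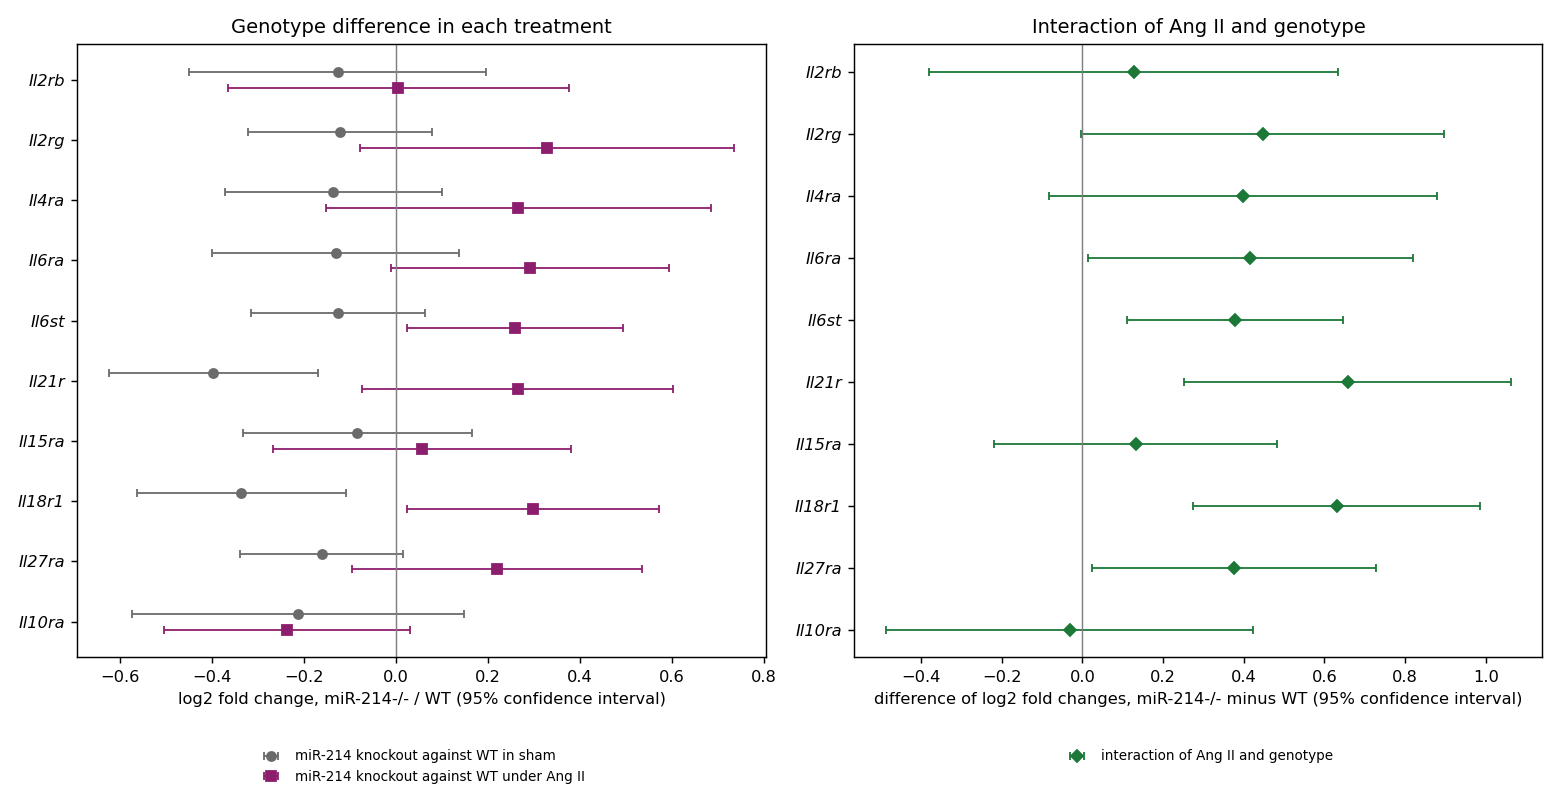
Left, log2 fold change of miR-214-/- over WT in sham (circles) and under Ang II (squares) for each receptor gene; right, the difference of the Ang II log2 fold changes between genotypes (diamonds), both under TMM scaling with 95% confidence intervals on the horizontal axes. No value passed an adjusted p of 0.05, and *Il21r* (0.66) and *Il18r1* (0.63) lay furthest to the right in the interaction, at 0.13 and 0.12 when libraries were scaled to T cell genes.

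Genes with and without the miR-214-3p seed site were set side by side. In sham mice the log2 fold changes of miR-214-/- against WT were -0.14 for *Il4ra*, -0.13 for *Il6st*, -0.34 for *Il18r1*, -0.16 for *Il27ra* and -0.21 for *Il10ra*, which hold the site. Those without it were at -0.13 for *Il2rb*, -0.12 for *Il2rg*, -0.13 for *Il6ra*, -0.40 for *Il21r* and -0.08 for *Il15ra*. With libraries scaled to T cell genes *Il4ra* (0.04), *Il6st* (0.04) and *Il27ra* (0.02) among the genes with a site turned above 0, as did *Il2rb* (0.05), *Il2rg* (0.06), *Il6ra* (0.04) and *Il15ra* (0.09) among those without. The values of the genes with and without a site overlapped under both scalings.

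Chains that pair with these receptors were read next. Of 12 tested partner receptor genes 1 was called lower and 1 higher in WT after Ang II, whereas 0 were lower and 6 higher with libraries scaled to T cell genes. Over all genes 18.8% were called under TMM scaling, 7.06% in the lower direction, and 48% were called under T cell scaling, and these shares also stand beside the counts of the other lists that follow. *Il7r*, which binds IL-7 together with the gamma chain and keeps resting T cells alive, was at 847, 1013 and 815 CPM in WT sham and at 571.5, 703 and 567 CPM in WT Ang II. It was lower in each Ang II library, with a log2 fold change of -0.52 (SE 0.12, adjusted p = 0.029) that was -0.0015 with libraries scaled to T cell genes. In miR-214-/- mice *Il7r* was at 1386, 1222 and 936 CPM in sham and at 499.9, 747 and 817 CPM after Ang II. Its log2 fold change there of -0.78 (SE 0.22) was not called (adjusted p = 0.303). With libraries scaled to T cell genes that value was -0.77, also not called (adjusted p = 0.485). *Il13ra1*, which joins *Il4ra* in the receptor for IL-4 and IL-13 of non-lymphoid cells, was at 6.2, 5.1 and 4.8 CPM in WT sham and at 16.1, 8.5 and 13.8 CPM in WT Ang II. It was higher in each Ang II library, with a log2 fold change of 1.28 (SE 0.26, adjusted p = 0.0197), in the opposite direction to *Il4ra* under TMM scaling (1.78 and 0.21 with libraries scaled to T cell genes). *Il18rap*, the second chain of the IL-18 receptor, lies 14507 bases from *Il18r1* on chromosome 1. Its level was 60.6, 62.9 and 52.4 CPM in WT sham and 66.3, 49.9 and 60.1 CPM in WT Ang II, which overlapped (log2 fold change 0.03, adjusted p = 0.901). *Il10rb*, the second chain of the IL-10 receptor, had a log2 fold change of -0.08 (adjusted p = 0.721), and *Il2ra*, the inducible alpha chain for IL-2, had -0.17 (adjusted p = 0.291).

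Downstream of the receptors, 5 of 15 kinases, STATs and adaptors were called lower in WT Ang II and 0 higher, whereas 0 were lower and 9 higher with libraries scaled to T cell genes, where 48% of all genes were called. *Jak1*, the kinase used by nearly all of these receptors, was at 1111, 1206 and 1255 CPM in WT sham and at 907, 909.5 and 831 CPM in WT Ang II. *Jak1* was lower in each Ang II library, with a log2 fold change of -0.41 (SE 0.08, adjusted p = 0.0185). Also called were *Stat4* (-0.42, adjusted p = 0.00831), *Stat5b* (-0.27, adjusted p = 0.0232) and *Stat6* (-0.26, adjusted p = 0.0384), the last of which transmits IL-4 signals. Of 8 feedback inhibitors 1, *Pias1*, was called lower (log2 fold change -0.28, adjusted p = 0.0167), whereas 0 were lower and 6 higher with libraries scaled to T cell genes. Of 14 survival and STAT target genes 2 were called lower, the kinases *Pim3* (-0.40, adjusted p = 0.0193) and *Pim1* (-0.37, adjusted p = 0.038), while *Mcl1*, a protein that protects lymphocytes from apoptosis, had -0.21 (adjusted p = 0.0723). With libraries scaled to T cell genes 0 of these 14 were called lower and 6 higher.

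Among the ligand genes *Osm* (18.5 ± 0.857 CPM) and *Il21* (10.6 ± 3.10 CPM) had the highest mean levels in WT sham, and each of the others was at 3.58 CPM or less. Of 15 ligand genes 10 were tested in WT and 1, *Il6*, was called higher, with 0.6, 0.4 and 0.4 CPM in WT sham and 1.3, 1.0 and 1.2 CPM in WT Ang II (log2 fold change 1.45, SE 0.32, adjusted p = 0.0244). Its counts were between 4 and 38 per library. With libraries scaled to T cell genes 4 ligand genes were called higher and 0 lower. Among 3 genes for shedding and decoys, *Adam10*, a protease that can release receptor ectodomains, was called higher, from 169, 162 and 198 CPM to 211, 236 and 218 CPM (log2 fold change 0.35, SE 0.09, adjusted p = 0.0343), and 2 of the 3 were higher with libraries scaled to T cell genes. Over these 6 lists edgeR called 0 of 61 tested genes in miR-214-/- mice after Ang II, where 12 had an unadjusted p under 0.05. DESeq2 called 3 genes of these lists there, and 277 of the 28376 genes to which it gave a p-value. Between genotypes and in the interaction both edgeR and DESeq2 called 0 genes of these lists. In those comparisons 2 (sham), 3 (Ang II) and 5 (interaction) had an unadjusted p under 0.05 in edgeR. For scale, *Il21r* at an unadjusted p of 0.0579 in edgeR ranked 2189 of 15937 genes in miR-214-/- mice after Ang II. Ranks near that threshold in the other comparisons are given above.

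**Figure D5:**
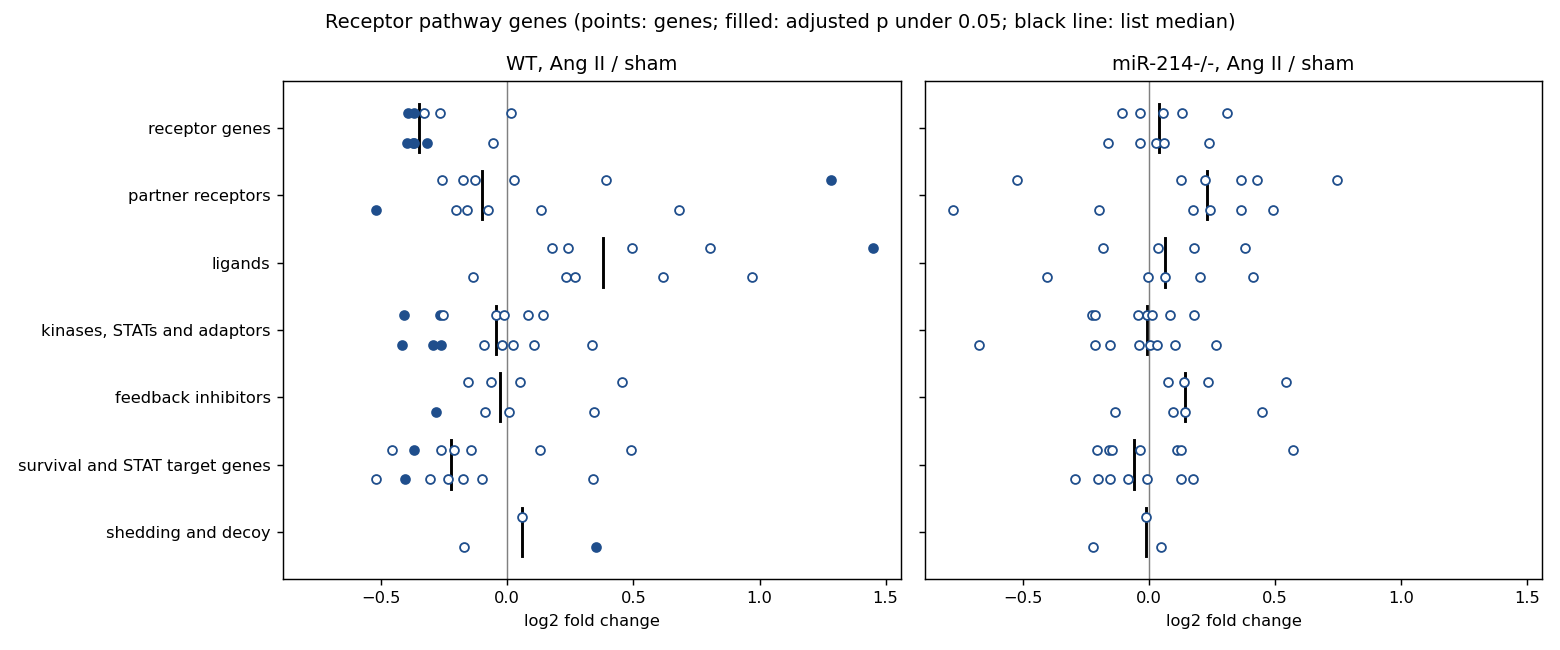
Log2 fold change of Ang II over sham (horizontal axis, TMM scaling) for the genes of each list (rows) in WT (left) and miR-214-/- mice (right); each point is a gene, filled points have an adjusted p under 0.05, black lines are list medians, and the vertical offset only separates points. In WT the receptor median was -0.35 and the ligand median 0.38 under this scaling (0.17 and 0.87 with libraries scaled to T cell genes), and no point was filled in miR-214-/- mice.

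Of the 10 receptor genes, *Il6st* had the widest range of its 4 group means, 0.42 on the log2 CPM scale. Over the 12 libraries the genes whose log2 CPM followed it most closely, among 16770, were *Invs* (Pearson r = 0.979), *Sept6* (r = 0.965) and *Xylt2* (r = 0.960). Among the receptor genes themselves, *Il2rg* was closest to *Il27ra* (r = 0.945) and *Il21r* to *Il18r1* (r = 0.919), whereas *Il15ra* and *Il10ra* had r below 0.4 with every other member. These correlations are descriptions over libraries that share groups, scaling and cell composition, and were not tested.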

How the data were processed

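Poly(A) RNA of splenic T cells from 12 mice was sequenced. Reads were trimmed with Trimmomatic and mapped to GRCm38 with STAR by the authors, who counted unique exonic reads with featureCounts (Subread 1.5.2) and deposited raw read counts per gene, without normalization. Multi-mapping reads were left out of the counts, and the strand setting and annotation release are not given in the sources used here. Of 49315 identifiers, 48970 were matched to symbols (GENCODE, GRCm38), and the other 345 held 0.0705% of counts.

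Groups came from the labels. Each comparison was fitted over all genes of its own libraries with edgeR 4.0.16 in R 4.3.3, using filterByExpr, TMM scaling and the quasi-likelihood test; the interaction used 12 libraries with both main effects. Calls needed a Benjamini-Hochberg adjusted p under 0.05. Levels are TMM-scaled CPM, and correlations used log2(CPM + 0.5). No 2 libraries of a group were identical (0 of 12 pairs), and the scripts were tested on simulated data. Counts of a gene measure counting error only up to its total of reads, and with 3 mice a group the spread between mice sets the precision.

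The receptor genes and gene lists were chosen with earlier results of these data known. Named were all receptor genes, up to 4 genes of a list per comparison with the smallest adjusted p, genes that pair with a receptor, and the 3 genes most like the receptor with the widest range. The values of 1 item are not reported here. Alternatives were DESeq2 1.42.0, RLE and library-size scaling, no filter, 10 counts in every library, a replicate block, 1 fit over all groups, an adjusted-deviance fit, a log2 fold change over 1, leaving out each library and, chosen after seeing the data, scaling by the summed counts of 12 T cell genes. Python 3.11.15 with pandas 2.3.3 and matplotlib 3.10.9 was used for sequences and plots.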

Additional observations from a re-analysis of the deposited data

How the results depend on the processing

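Of the 10 WT responses to Ang II, 8 (*Il2rb*, *Il2rg*, *Il4ra*, *Il6ra*, *Il6st*, *Il21r*, *Il18r1* and *Il27ra*) kept a value below 0 in 14 of 14 alternatives other than scaling by T cell genes. Under that scaling, chosen after seeing the data, 9 turned above 0: *Il2rb* 0.25, *Il2rg* 0.15, *Il4ra* 0.21, *Il6ra* 0.15, *Il6st* 0.12, *Il21r* 0.19, *Il18r1* 0.15, *Il27ra* 0.13 and *Il10ra* 0.44. For miR-214-/- against WT under Ang II it gave -0.080 (*Il6st*), -0.087 (*Il21r*) and -0.042 (*Il18r1*), and for the interaction -0.092 (*Il6ra*), -0.13 (*Il6st*) and -0.15 (*Il27ra*). *Il15ra* in WT was at -0.0082 in 1 fit over all groups and between -0.056 and 0.10 when 1 library was left out, and *Il10ra* between -0.18 and 0.10. The count of called receptor genes in WT, 6, was 3 in 1 fit over all groups, 1 with scaling by T cell genes, 0 with a log2 fold change over 1 and 0 to 7 when 1 library was left out. For the interaction, 0 became 1 with DESeq2 and 0 to 6 when 1 library was left out. A log2 fold change over 1 is a stricter rule and gives fewer calls by construction; for the other settings the cause was not tested. With the replicate number as a block the WT count was 4 and every other count stayed 0; same-numbered libraries did not deviate together (correlations of 0.23, 0.11 and -0.17 in WT, and of -0.62, -0.28 and -0.41 in miR-214-/-), so the numbers were not taken as pairs. The other comparisons kept 0 receptor calls under every alternative run. With 313 counts or more per library counting error was small for every receptor gene, and 3 mice a group limit the precision.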
